A study of Mus musculus with 15 samples.

Results

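The 9 PS2APP samples in a set of 15 mouse microglia libraries were compared with one another along a plaque-program axis. The axis of a sample is the mean over Cst7, Itgax, Clec7a, Gpnmb, Igf1 and Lpl of log2(CPM + 1), where CPM is the read count scaled to the adjusted size of its library. Every other gene with a mean of at least 5 CPM over the 9 samples, 11202 in all, was then set against the axis. The 6 axis genes were chosen as known markers that are high in PS2APP in these same libraries, so their own values are given as a description, with no test. The other 6 libraries are wild type, and they serve here only to show where each level lies without plaques.

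All cells were sorted from cortex on the Cx3cr1::GFP reporter, at 14 months (PS2APP samples 3, 4, 6 and 8) or 15 months (PS2APP samples 1, 7, 10, 14 and 15). PS2APP mice carry transgenes for a mutant presenilin 2 and a mutant amyloid precursor protein and form amyloid plaques. The sources used here do not name the promoters that drive the transgenes, and the reporter is shared by both genotypes. Nothing in the labels says that each sample is a separate mouse, so the p-values speak only of the spread among these libraries, which may be technical. Each library is a bulk sort, in which a larger share of plaque-associated cells and more RNA per such cell cannot be told apart.

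Microglia that touch amyloid plaques change their expression in a way often called the disease-associated or plaque-associated program. They lower sensing and identity genes and raise genes for lipid uptake, lysosomal breakdown, growth factors and surface receptors, in large part through the receptor Trem2 and its adaptor Tyrobp. Immediate early genes such as Fos and Egr1 are a different kind of response, switched on within minutes of a stimulus in many cell types, including during tissue dissociation.

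The sorted cells carried the defining microglial genes. The purinergic receptor P2ry12 lay between 3140 and 7315 CPM in the 9 PS2APP samples, and Tmem119 between 957 and 2080 CPM. Library totals in PS2APP ran from 3843223 to 6526114 reads. Total reads had a Pearson's r of -0.03 with the axis over the 9 samples (Spearman's rho -0.03, exact permutation p = 0.943 and 0.948, r = 0.45 without the 2 samples farthest from the median of the axis, samples 8 and 4). PS2APP sample 8 stood apart in several measures, with the highest share of reads in ribosomal protein genes (0.351% against a median of 0.170%) and the lowest neuron marker score. PS2APP samples 1 and 4 stood apart in immediate early genes, and PS2APP samples 6 and 8 in fibrillar collagens, as described with those genes.

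The axis ran from 6.53 to 8.45 in PS2APP, with a median of 7.48, and from 3.05 to 3.98 in wild type. The groups did not overlap, and the range within PS2APP, 1.92 log2 units or 3.79-fold, was smaller than the gap between genotypes. PS2APP samples 4 (6.53) and 1 (7.02) were lowest and samples 6 (8.29) and 8 (8.45) highest. The other 5 lay close together, between 7.43 and 7.69, so that the ends of the axis rest on 4 libraries. The mean axis was 7.69 ± 0.88 (SD, n = 4) at 14 months and 7.45 ± 0.27 (SD, n = 5) at 15 months, a difference of -0.24 (2-sided exact permutation test over 126 splits, p = 0.603). Both the lowest and the 2 highest samples were 14 months old.

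Cst7, which encodes the protease inhibitor cystatin F, lay between 214 and 749 CPM in PS2APP with a median of 445, and between 3.48 and 16.8 CPM in wild type. Itgax, the integrin alpha chain CD11c, ran from 75.4 through a median of 141 to 342 CPM. Clec7a, the beta-glucan receptor dectin-1, ran from 89.4 through 263 to 420 CPM. The widest spread was that of Gpnmb, a lysosome-associated membrane glycoprotein, with 41.6, 103 and 258 CPM as lowest, median and highest, a 6.19-fold range. Igf1, an insulin-like growth factor, ran from 62.6 through 157 to 344 CPM, a 5.50-fold range. Lpl, the lipoprotein lipase, ran from 111 through 223 to 378 CPM, a 3.41-fold range. All 6 were lowest or second lowest in sample 4, with a lower value for Igf1 and Lpl in sample 1, and all but Cst7, Gpnmb and Lpl were highest in sample 8, where those 3 were highest in sample 6.

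**Figure D1:**
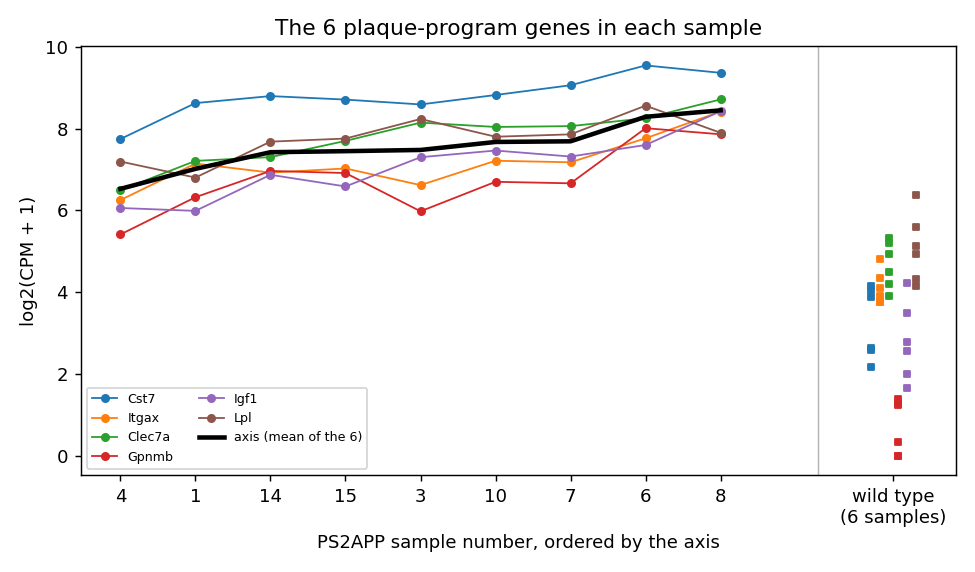
Level of each of the 6 axis genes, in log2(CPM + 1), in the 9 PS2APP samples ordered by the axis (black line, the mean of the 6) and, as squares, in the 6 wild type samples. PS2APP sample 4 lies at an axis value of 6.53 and sample 8 at 8.45, and no wild type value of Cst7 is above 16.8 CPM.

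The 6 genes did not move as a single unit. As a description over the 9 samples, the correlation of each gene with the mean of the other 5 was 0.93 for Cst7, 0.90 for Clec7a, 0.87 for Igf1, 0.85 for Gpnmb, 0.84 for Itgax and 0.66 for Lpl. Over the 15 pairs the correlation ran from 0.37, for Itgax with Lpl, to 0.93, for Cst7 with Gpnmb, with a median of 0.76. Sample 3 shows the difference, since it held the lowest Gpnmb after sample 4 while its Lpl was the second highest of the 9.

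The promoters of the axis genes were searched for the letters of 6 motifs, and the Itgax stretch is shown because it holds those of AP-1, the factor built from Fos and Jun proteins, whose genes are described further on. The search covered the 250 bases upstream of the RefSeq start (GRCm38.p6) on both strands and had an entry for 5 of the 6 axis genes, without Lpl. TGANTCA was present in 2 of the 5, Itgax and Igf1, and in 3.92% of the 8527 promoters of genes with a mean of at least 5 CPM. The Itgax stretch is chr7:128129376-128129525, plus strand, with the match in capitals at bases -56 to -50 from the start in the table, and the bases inside the gene's span are left out.
Itgax: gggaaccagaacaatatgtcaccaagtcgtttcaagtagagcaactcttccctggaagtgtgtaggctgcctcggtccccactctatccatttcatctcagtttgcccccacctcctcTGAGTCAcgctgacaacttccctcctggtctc
GAGGAA, the core of the PU.1 motif, was in 2 of the 5 (Clec7a and Igf1) against 22.99% of expressed genes. CATGTG, the M-box core, was in 0 of the 5, as were the lysosomal CLEAR core CACGTG, the cyclic AMP response core TGACG and the CArG box of serum response factor. These are matches of letters in a short window and say nothing of binding.

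Along the axis, edgeR's quasi-likelihood test called 25 of the 11202 genes at a Benjamini-Hochberg adjusted p under 0.05, 11 with a positive slope (0.0982%) and 14 with a negative slope (0.125%). A slope is the change of a gene in log2 units for each log2 unit of the axis, so that a gene moving like the average axis gene has a slope near 1. The exact permutation test of Pearson's r, over all 362880 orderings of the 9 samples, called 0 genes (smallest adjusted p = 0.676), with 808 genes (7.21%) at an unadjusted p under 0.05. The exact permutation test of Spearman's rho also called 0 (smallest adjusted p = 0.0617), with 1215 genes (10.8%) at an unadjusted p under 0.05. The edgeR calls depend on its model of the counts, and limma on the deposited normalized RPKM called 0 in either direction (880 genes at an unadjusted p under 0.05). With any 1 sample left out, edgeR called 3 to 11 positive and 3 to 19 negative genes, the fewest positive without sample 6 and the fewest negative without sample 4. The 25 genes fall in 3 patterns: 6 graded positive genes, 5 matrix genes high in 2 libraries, and 14 negative genes of which 13 were high in 2 other libraries.

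The 6 graded genes were Cd200r4, Ccl6, Hif1a, Ldlrad3, Hpse and Spp1, and each is also higher in PS2APP than in wild type. Cd200r4 (chr16:44811650-44839150), of the CD200 receptor family, had 11.01 CPM in sample 4, a median of 22.6 and 49.0 CPM in sample 6, with at most 1.62 CPM in wild type. Its slope was 1.11 ± 0.20 (SE, edgeR adjusted p = 0.0302). It had the highest r of the 6, with r = 0.97 and rho = 0.93 over 9 samples (exact permutation p = 9.6e-05 and 7.5e-04, adjusted p = 0.676 and 0.2999), and r = 0.96 without samples 8 and 4.

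Hif1a (chr12:73901324-73947554), the hypoxia-inducible transcription factor, lay at 258 CPM in sample 4, 460 at the median and 888 CPM in sample 8, and at 137 to 299 CPM in wild type. The slope was 0.85 ± 0.16 (edgeR adjusted p = 0.0341), with r = 0.90 and rho = 0.97 (exact permutation p = 0.00111 and 1.7e-04, adjusted p = 0.676 and 0.265) and r = 0.73 without samples 8 and 4. Its slope was 0.81 among the 14-month samples and 0.91 among the 15-month samples. Sample 4 lay within the wild type range and the other 8 above it.

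Hpse (chr5:100679484-100719716), the endoglycosidase heparanase that cuts heparan sulfate, had 14.3 CPM in sample 4, a median of 35.8 and 88.2 CPM in sample 8, and at most 0.305 CPM in wild type. Its slope was 1.22 ± 0.24 (edgeR adjusted p = 0.0373), and r = 0.85, rho = 0.92 (exact permutation p = 0.00490 and 0.00131, adjusted p = 0.676 and 0.306), with r = 0.63 without samples 8 and 4. Sample 1, second lowest on the axis, held Hpse near the median, and the slope was 1.78 without samples 1 and 4. Among the 15-month samples alone the slope was 0.16.

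Ldlrad3, a membrane protein with low-density lipoprotein receptor repeats, had 8.30 CPM in sample 4, a median of 18.8 and 42.1 CPM in sample 8, with a slope of 1.23 ± 0.23 (edgeR adjusted p = 0.0357). Its r was 0.94 and rho 0.83 (exact permutation p = 7.5e-04 and 0.00827, adjusted p = 0.676 and 0.340), with r = 0.85 without samples 8 and 4. Ccl6, a CC chemokine, had 99.4 CPM in sample 4, a median of 162 and 396 CPM in sample 8, with a slope of 0.91 ± 0.16 (edgeR adjusted p = 0.0184). Its r was 0.91 and rho 0.72 (exact permutation p = 0.00182 and 0.0369, adjusted p = 0.676 and 0.383), with r = 0.76 without samples 8 and 4. Apart from samples 4, 6 and 8 the Ccl6 values of PS2APP stayed between 141 and 187 CPM, and the slope over the 15-month samples was 0.06.

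Spp1, the secreted glycoprotein osteopontin, had the steepest graded slope, 1.61 ± 0.31 (edgeR adjusted p = 0.0373), and ran from 21.3 CPM in sample 1 through a median of 102 to 343 CPM in sample 6. Its r was 0.82 and rho 0.77 (exact permutation p = 0.00955 and 0.0214, adjusted p = 0.676 and 0.356), with r = 0.86 without samples 8 and 4. Like Cd200r4, it was lower in sample 8 (190 CPM) than in sample 6. Its lowest PS2APP values, 21.3 and 40.3 CPM, were within the wild type range, which reached 43.9 CPM.

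The 6 calls are not firm. With 1 of the 9 samples left out, edgeR called Ccl6 in 6 fits, Cd200r4 in 5, Hif1a and Hpse in 4 each, Ldlrad3 in 3 and Spp1 in 2, and in those fits every slope stayed between 0.71 and 1.86. In a fit that also held age, edgeR lost all 6 calls, with Cd200r4 at a slope of 1.12 (adjusted p = 0.0782). A fit that held the neuron marker score lost all 6 as well, with Cd200r4 at an edgeR adjusted p = 0.1204.

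**Figure D2:**
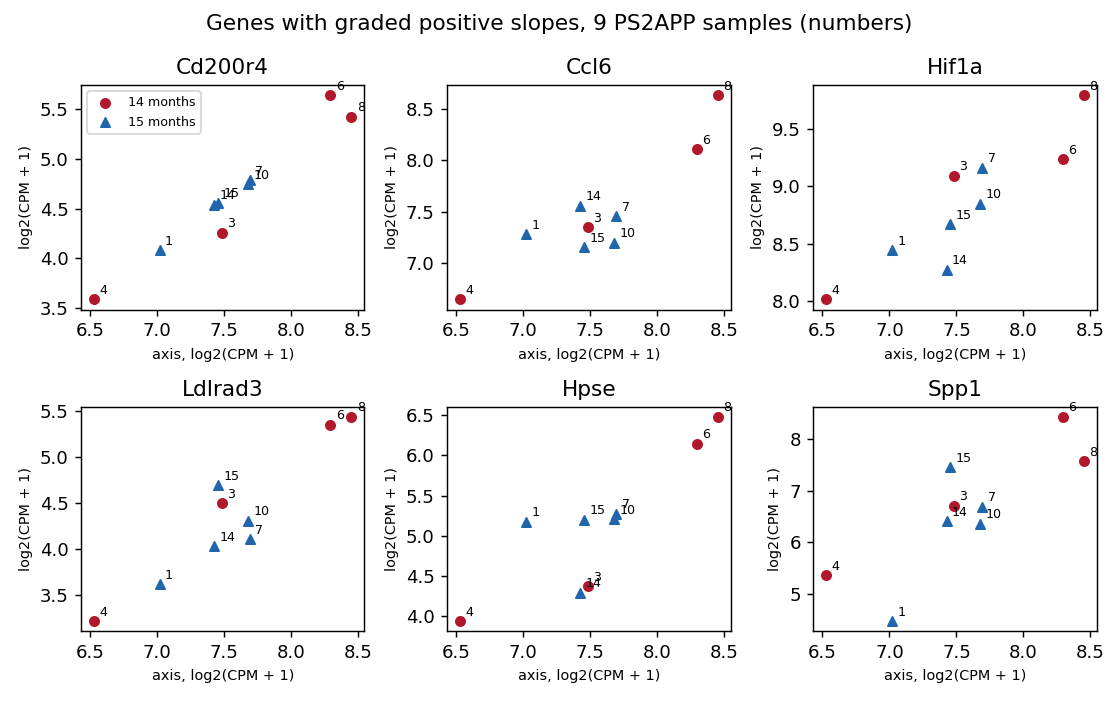
Level in log2(CPM + 1) of the 6 graded genes against the axis in the 9 PS2APP samples, numbered, with 14-month samples as circles and 15-month samples as triangles. Sample 4 is at the lower left for each gene, samples 6 and 8 are at the upper right, and only Spp1 has its lowest value in sample 1.

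The other 5 positive calls were Col3a1, Col1a2, Col1a1, Tnc and Bgn, which encode fibrillar collagen chains, tenascin C and biglycan, proteins of the extracellular matrix made mostly by fibroblasts. The collagen chains and Tnc were present or absent rather than graded. Col3a1 had 72.7 CPM in PS2APP sample 6 and 88.4 CPM in sample 8, and at most 0.164 CPM in the other 7. Col1a2 had 92.1 and 111 CPM in those samples and at most 0.451 CPM in the other 7, and Col1a1 had 85.8 and 104 CPM and at most 1.19 CPM. Wild type sample 5, whose axis value is 3.10, held 86.3 CPM of Col3a1, 93.9 CPM of Col1a2 and 84.7 CPM of Col1a1. These 3 libraries are all 14 months old. With the samples in such clusters no pooled correlation is given, and over the 7 PS2APP samples other than 6 and 8 the correlation of Col1a1 with the axis was 0.11. Tnc had 24.7 and 22.2 CPM in samples 6 and 8 and at most 0.572 CPM in the other 7, while Bgn, with 21.6 and 29.3 CPM there, also had 8.11 CPM in sample 7 and 4.07 CPM in sample 15.

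The fibroblast markers Dcn (decorin) and Lum (lumican), added with a fibroblast list after the collagen calls were seen, had at most 4.70 and 2.32 CPM in PS2APP. Both were highest in samples 8 and 6 among PS2APP samples. Among wild type samples both were highest in sample 5, at 9.17 and 2.16 CPM. The summed CPM of the fibroblast list did not follow them, and only 1 of its 16 markers had a PS2APP mean of at least 5 CPM. The 16 markers summed to 79.5 and 80.9 CPM in samples 6 and 8, below the PS2APP median of 84.5 CPM. The highest PS2APP sum was 114.8 CPM, in sample 14, and wild type sample 5 had 87.1 CPM. The 11 mural cell markers summed to 76.7 and 61.9 CPM in samples 6 and 8, at most 39.8 CPM in the other 7 and 44.5 CPM in wild type sample 5. The 15 endothelial markers summed to 199.7 and 198 CPM in samples 6 and 8, at most 171 CPM in the other 7 and 127 CPM in wild type sample 5. None of these markers was at 0 in all PS2APP samples. The part of other cells in the collagen reads was not tested. With the fibroblast score as a covariate, edgeR called 0 genes in either direction (470 at an unadjusted p under 0.05). Unlike the summed CPM of the fibroblast list, the score was highest in the 2 samples highest on the axis. It was lowest in sample 4 (0.71), the lowest on the axis. That fit therefore cannot part the score from the axis, and the loss of calls extends to the negative genes. Without samples 6 and 8 edgeR called 2 positive genes, neither among the 11.

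The 14 negative calls were Fosb, Fos, Iqcn, Dusp1, Btg2, Egr1, Zfp36, Jun, H1f3, H4f16, Klf2, Junb, Neurl1a and Ier2, of which the last pair came after the 12 named by rule. Fos, the partner of Jun in the AP-1 factor, had 267 CPM in PS2APP sample 1, 266 CPM in sample 4 and at most 5.63 CPM in the other 7. Egr1, a zinc finger transcription factor, had 1019 and 923 CPM in those samples and at most 55.9 CPM in the other 7. Dusp1, a phosphatase that turns off MAP kinases, had 435 and 416 CPM against at most 14.1 CPM. Samples 1 and 4 are also the 2 lowest on the axis.

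The same genes were high in wild type samples 9 and 13, where Fos had 973 and 3543 CPM while the axis was 3.05 and 3.37. Of the immediate early list 23 genes were tested, 0 had a positive slope, 10 were called negative and the median slope was -1.53, beside a median of 0.01 and 5784 positive slopes over all 11202 genes. Without samples 1 and 4 the median of the list was -0.20, the 5 negative calls (0.0446%) held none of these 14, and 1 of the 23 had an unadjusted p under 0.05 with a negative slope, beside 4.26% of all genes. Within those 7 samples the correlation with the axis was -0.60 for Fos, -0.56 for Egr1 and -0.39 for H1f3, as a description, and ran over the 13 called genes other than Neurl1a from -0.83, for Dusp1, to -0.04, for Ier2. Of the 23 genes of the list, 8 had a positive slope there. Zfp36, which promotes decay of cytokine messages, had 1393 and 1506 CPM in samples 1 and 4 and at most 224 CPM in the other 7. The linker histone gene H1f3 had 153 and 202 CPM there and at most 23.8 CPM in the others, so a histone gene shared the pattern.

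**Figure D3:**
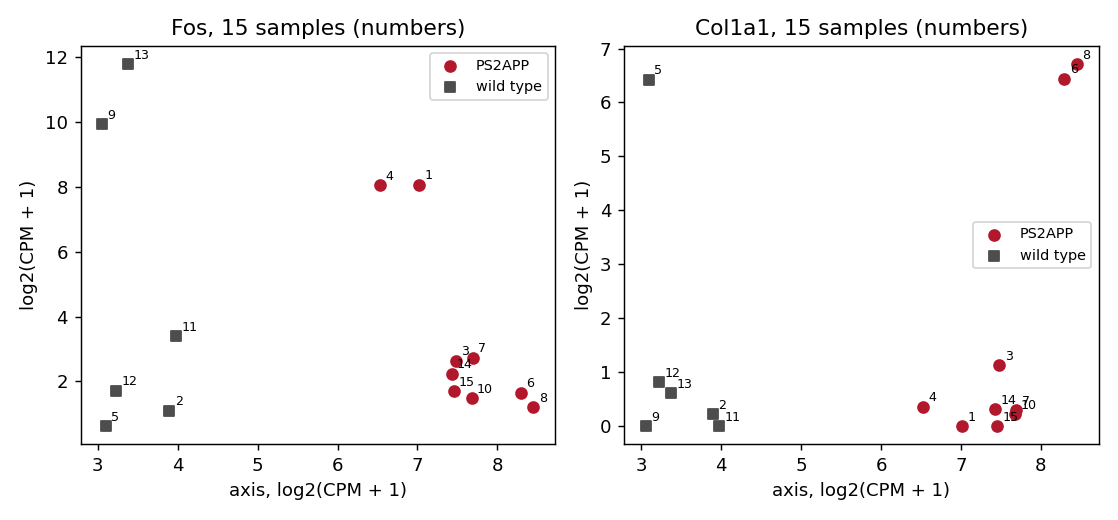
Level in log2(CPM + 1) of Fos (left) and Col1a1 (right) against the axis in all 15 samples, numbered, with PS2APP as circles and wild type as squares. Fos is high in PS2APP samples 1 and 4 and wild type samples 9 and 13, and Col1a1 in PS2APP samples 6 and 8 and wild type sample 5.

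The upstream bases of 3 of these genes are shown because TGACG, the core of the cyclic AMP response element, was present in 6 of the 11 named negative genes with a promoter entry (Btg2, Dusp1, Fos, Fosb, Junb and Klf2), beside 28.1% of the 8527 promoters of expressed genes. The Fos stretch is chr12:85473740-85473889 on the plus strand, the Junb stretch chr8:84978749-84978898 on the minus strand and the Dusp1 stretch chr17:26508473-26508622 on the minus strand, all in GRCm38.p6 and ending just before the gene. Capitals mark TGACG on either strand, and in Dusp1 a match on each strand overlaps the other.
Fos: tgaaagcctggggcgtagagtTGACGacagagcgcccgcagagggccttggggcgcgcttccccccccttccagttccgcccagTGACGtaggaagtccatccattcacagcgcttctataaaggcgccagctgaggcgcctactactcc
Junb: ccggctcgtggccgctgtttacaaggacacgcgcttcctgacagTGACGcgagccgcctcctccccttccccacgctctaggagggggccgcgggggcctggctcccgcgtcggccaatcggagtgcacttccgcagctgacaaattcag
Dusp1: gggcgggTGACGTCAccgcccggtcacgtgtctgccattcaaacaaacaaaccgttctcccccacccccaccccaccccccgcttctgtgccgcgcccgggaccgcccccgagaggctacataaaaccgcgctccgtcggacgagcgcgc
The M-box core and the AP-1 letters were in 0 of the 11, and the PU.1 core (Btg2), the CLEAR core (Dusp1) and the CArG box (Zfp36) in 1 each. Of the 10 promoters of called positive genes, the M-box core was in 1, the CLEAR core in 1, the PU.1 core in 3 and the other motifs in 0.

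Neurl1a, which encodes a neuralized ubiquitin ligase, was the exception among the negative calls. It ran from 23.5 CPM in sample 8 through a median of 40.9 to 80.7 CPM in sample 4, beside 21.1 to 79.3 CPM in wild type, so that sample 4 alone lay above that range. The slope was -0.98 ± 0.19 (edgeR adjusted p = 0.0423), with r = -0.91 and rho = -0.88 over 9 samples (exact permutation p = 5.8e-04 and 0.00308, adjusted p = 0.676 and 0.334). It was -0.94 without samples 1 and 4, where the call was lost, and r = -0.82 without samples 8 and 4. Between genotypes Neurl1a differed by a log2 value of 0.26 ± 0.31 (edgeR adjusted p = 0.819).

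Of the 134 genes that edgeR called higher in PS2APP than in wild type (0.958% of 13994), 119 were tested on the axis and are not axis genes. Of these, 100 had a positive slope, 6 were called and 48 had an unadjusted p under 0.05 with a positive slope, beside 4.17% of all genes. The median slope was 0.42, and 0.33 without sample 8. The genotype contrast holds the same 9 PS2APP samples, so the lists are not independent. Of the 25 tested genes called lower in PS2APP, 7 had a positive slope and the median slope was -0.12. On the axis 0 were called by edgeR, with 0 calls also by the permutation tests. In edgeR 1 had an unadjusted p under 0.05 with a negative slope, beside 3.92% of all genes.

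**Figure D4:**
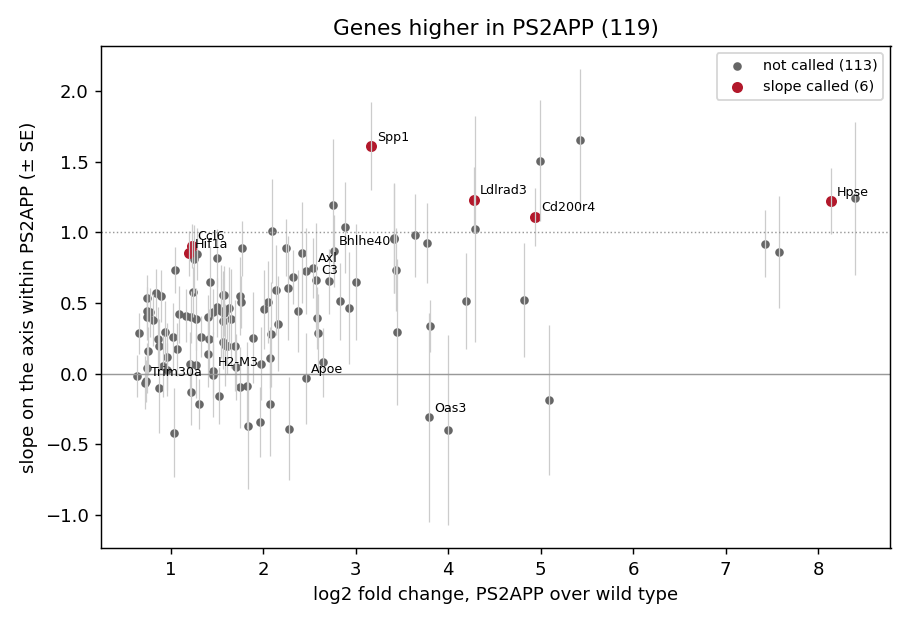
Slope on the axis within PS2APP (with its SE) against the log2 fold change of PS2APP over wild type for the 119 tested genes called higher in PS2APP, with the 6 genes called on the axis in red. The dotted line at 1 marks a gene that moves like the average axis gene, and Apoe lies near 0 at a log2 fold change of 2.46.

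Several genes that separate the genotypes had slopes near 0 within PS2APP. Apoe, the apolipoprotein that leads many accounts of the plaque program, had 357 CPM in sample 8, a median of 1261 and 1645 CPM in sample 6, with 83.6 to 514 CPM in wild type. The slope of Apoe was -0.03 ± 0.32 with a 95% interval from -0.71 to 0.65, and 0.47 without sample 8. The 2 samples highest on the axis thus had the highest and the lowest Apoe level of the 9. Oas3, an interferon-induced synthetase, ran from 0.989 CPM in sample 14 through a median of 25.99 to 43.5 CPM in sample 15, with a slope of -0.31 ± 0.74, too uncertain to place.

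The 8 genes called higher in PS2APP whose intervals reached least far from 0 were Trim25, Trim30a, H2-M3, Csf2ra, Gas6, Zfp704, Map3k20 and Ifi207, and their 95% intervals lay between -0.46 and 0.54. Trim25 (66.3 to 84.5 CPM) and Trim30a (174 to 259 CPM) encode tripartite motif proteins of antiviral defence. H2-M3, a non-classical MHC class I gene, had a slope of 0.02 ± 0.19, Ifi207 of the interferon-inducible p200 family 0.05 ± 0.23 and Csf2ra, the GM-CSF receptor alpha chain, 0.03 ± 0.19. Gas6, a ligand of Axl, had a slope of -0.06 ± 0.19, while Axl itself, a phagocytic receptor, had 0.75 ± 0.21 (edgeR adjusted p = 0.353), and 0.34 without sample 8.

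The gene lists were read by their counts and medians. In the plaque-associated list, taken from the general program, 33 of the 36 members tested had a positive slope, 3 were called (Ccl6, Hif1a and Spp1), 20 had an unadjusted p under 0.05 with a positive slope and the median slope was 0.49. Without sample 8 the median was 0.31 and without samples 1 and 4 it was 0.95, with 27 of the 36 at an unadjusted p under 0.05 and a positive slope, beside 4.82% of all genes. The counts were smaller without the samples highest on the axis. Without sample 8, 8 had an unadjusted p under 0.05 with a positive slope and 3 with a negative one, beside 4.12% and 2.38% of all genes. Without samples 6 and 8 the counts were 5 and 5, beside 6.74% and 2.98% of all genes, and the median was 0.16. Among the 15-month samples alone the median was 0.06. A second list held 21 genes read in PS2APP and near 0 in wild type, picked on these libraries, of which 20 had a positive slope, 3 were called (Cd200r4, Ldlrad3 and Hpse) and the median was 0.75. That median lay between 0.63 and 0.82 with any single sample left out. Its members include Atp6v0d2, a vacuolar ATPase subunit, at 1.62 ± 0.37 (edgeR adjusted p = 0.118), and C3, the complement component, at 0.66 ± 0.40.

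The Trem2 and ITAM signalling list had a median slope of -0.04, with 10 of 23 positive and 0 called by edgeR. At an unadjusted p under 0.05 it had 1 positive and 4 negative genes, beside 4.17% and 3.92% of all genes. Trem2 had a slope of 0.28 ± 0.19, with a lowest level of 538, a median of 869 and a highest of 1387 CPM. The slope of Trem2 was 0.87 without samples 1 and 4 and -0.28 without samples 6 and 8. Its adaptor Tyrobp had 0.42 ± 0.15, and Blnk, a signalling adaptor, -0.33 ± 0.14 (edgeR adjusted p = 0.471 and 0.530). Both kept their sign in the same fits, with 0.63 and 0.32 for Tyrobp and -0.31 and -0.29 for Blnk. The homeostatic list had a median of -0.12 with 13 of 33 positive and 0 called. At an unadjusted p under 0.05 it had 3 positive and 4 negative genes, beside 4.17% and 3.92% of all genes. P2ry12 had a slope of 0.07 ± 0.18, Tmem119 -0.17 ± 0.17 and the fractalkine receptor Cx3cr1, whose locus drives the reporter, -0.27 ± 0.14. The slope of Tmem119 was 0.47 without samples 1 and 4 and -0.76 without samples 6 and 8. In the same fits P2ry12 had 0.01 and 0.10, and Cx3cr1 -0.30 and -0.25. Sall1, a transcription factor of microglial identity, had -0.30 ± 0.14, with rho = -0.92 and r = -0.77 (exact permutation p = 0.00131 and 0.0155, adjusted p = 0.306 and 0.676).

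Interferon-response genes, which differed by genotype with a median log2 fold change of 1.30 and 10 genes called higher, had a median slope on the axis of -0.01, with 18 of 36 positive and 0 called by edgeR. The count at an unadjusted p under 0.05 was 0 positive and 1 negative. The median was -0.18 without sample 8 and 0.37 without samples 1 and 4, so the direction of the list turned with those libraries. Mx1, a GTPase of antiviral defence, had a slope of -0.55 ± 0.30 and ran from 9.22 to 31.7 CPM. The cytokine and NF-kB list had a median of -0.09 with 7 of 26 positive and 0 called by edgeR. At an unadjusted p under 0.05 there were 1 positive and 3 negative genes, beside 4.17% and 3.92% of all genes. Il1a, the cytokine interleukin 1 alpha, had a slope of -0.91 ± 0.21 (edgeR adjusted p = 0.134).

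The lysosome, ribosomal protein, MHC class II and oxidative phosphorylation lists had positive medians that were near 0 or much smaller without sample 8. The lysosome list had 35 of 40 positive and a median of 0.20, which was 0.01 without sample 8. The ribosomal protein list had 35 of 44 positive and a median of 0.39, which was -0.05 without it. The MHC class II list had 9 of 10 positive and a median of 0.40, which was 0.10 without it, and the oxidative phosphorylation list had 51 of 67 positive and 0.18, which was 0.02 without it. None of the 161 genes of these 4 lists was called by edgeR, and 29 of them had an unadjusted p under 0.05 with a positive slope, beside 4.17% of all genes. Without sample 8 the count was 7, beside 4.12% of all genes.

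Sterol synthesis kept more of its median, with 19 of 22 genes positive, a median of 0.33 and 0.19 without sample 8. Its counts fell as in the other lists. None of the 22 was called by edgeR, and 7 had an unadjusted p under 0.05 with a positive slope, beside 4.17% of all genes. Without sample 8 that count was 1, beside 4.12% of all genes. Cd63, a tetraspanin of late endosomes, had 108 CPM at the lowest, 142 at the median and 342 CPM in sample 8, and its slope of 0.71 ± 0.18 (edgeR adjusted p = 0.210) was 0.39 without that sample. H2-Aa, an MHC class II chain, had 126, 194 and 684 CPM, the last in sample 8, and its slope of 1.01 ± 0.22 (edgeR adjusted p = 0.0930) was 0.52 without it. Glb1, the lysosomal beta-galactosidase, had a slope of 0.52 ± 0.15 and 0.31 without sample 8.

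**Figure D5:**
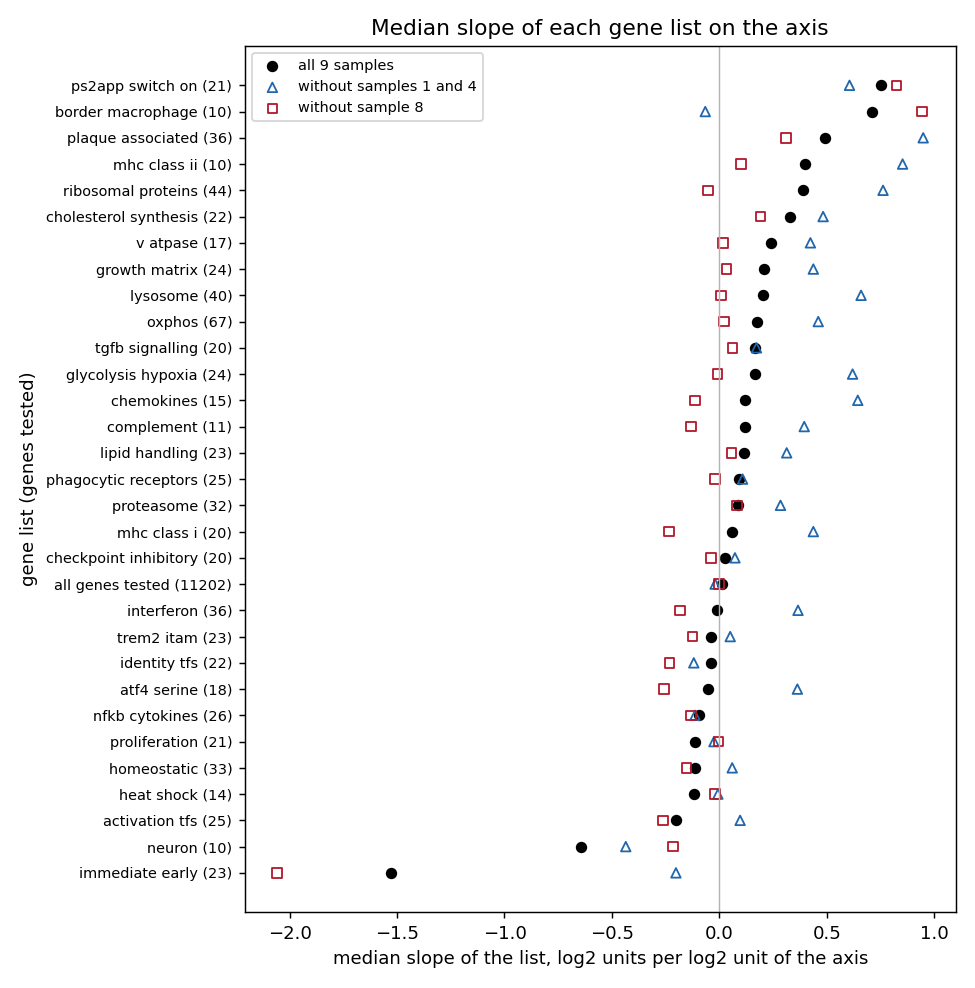
Median slope on the axis of each gene list, with the number of genes tested in brackets, over all 9 PS2APP samples (filled circles), without samples 1 and 4 (triangles) and without sample 8 (squares). The immediate early list moves from -1.53 to -0.20 without samples 1 and 4, the ribosomal protein list from 0.39 to -0.05 without sample 8, and the list picked as near 0 in wild type stays between 0.61 and 0.82.

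Levels of markers of other cells are given beside the axis. The 22 neuron markers summed to 112 CPM in PS2APP sample 8, the lowest, and 553 CPM in sample 4, the highest, and to 438 to 840 CPM in wild type. Of the 10 tested, 0 had a positive slope, with a median of -0.64, or -0.22 without sample 8. The median was 0.30 without samples 8 and 4, so its sign depended on those samples. None of the 10 was called by edgeR, and 3 had an unadjusted p under 0.05 with a negative slope, beside 3.92% of all genes. None of the 22 was at 0 in all PS2APP samples. The 13 border macrophage markers summed to between 512 and 866 CPM, lowest in sample 8 and highest in sample 7. The 10 tested had a median slope of 0.71, or -0.07 without samples 1 and 4. The part of neuronal and border macrophage RNA in the slopes was not tested beyond the neuron covariate above.

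Of 8 library and composition measures set against the axis, none passed after adjustment. The immediate early score came closest in Pearson's r, with 2 of the 9 samples far above the rest (Benjamini-Hochberg adjusted exact permutation p = 0.203), and the neuron score had an adjusted p = 0.247. The neuron score had r = -0.65 and rho = -0.28 with the axis, and r = 0.21 without samples 8 and 4. The first principal component of the 9 samples held 25.4% of the variance. As a description, its r was 0.61 with the axis and -0.86 with the immediate early score. Samples 1 and 4 lay lowest on it, at -60.9 and -17.2.

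Some genes varied widely among the 9 samples with no called slope on the axis. By rule these were genes with a mean of at least 20 CPM, an r within 0.3 of 0 and the largest spread, namely Xist, Tsix, Rpph1, Oas3, Lars2, Pak4, Neb and Mir6236. Xist, the RNA that coats the inactive X chromosome, had 16.6 CPM in sample 14 and at least 3653 CPM in the other 8 PS2APP samples. Sample 14 also held 1366 reads of Y-linked genes, and the other 8 held at most 10, in sample 3. It thus had the reads of a male library and the other 8 those of female ones. Wild type samples 12 and 13 had 1793 and 3415 Y-linked reads. Neb, which encodes the muscle protein nebulin, had 150 CPM in sample 15 and at most 27.4 CPM in the others. Lars2, a mitochondrial leucyl-tRNA synthetase, ran from 199 CPM in sample 6 to 2240 CPM in sample 8, the 2 samples highest on the axis.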

How the data were processed

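RNA was extracted from sorted GFP-positive cells with a column kit, per the labels' protocols. The submitters' processing notes name GSNAP and the GRCm38 build. No source used here gives the annotation, the library kit or its strandedness, so a gene and an antisense partner cannot be told apart. The deposited tables give, per the file headers, the count of uniquely aligned reads for 36528 gene IDs and a normalized RPKM whose size factor is not explained. RefSeq (GRCm38.p6) named 31049 of the IDs.

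Counts were scaled by TMM over all 15 samples. The main test was edgeR 4.0.16 (R 4.3.3), a quasi-likelihood fit of the axis alone over the 9 PS2APP samples, for genes with a mean of at least 5 CPM, with the axis genes left out of the adjustment. The SE is the slope over the square root of F. Correlations used log2(CPM + 1) and all orderings. Genotype was fitted over 15 samples with age. The deposited RPKM entered an alternative with limma 3.58.1, with a pseudocount of 1, and DESeq2 1.42.0 was another. Named genes were the 12 smallest p in each direction, up to 3 members of each list and 8 genes of each independent kind. Others (Neurl1a, Ier2, Apoe, Trem2, Sall1, Dcn, Lum and the microglial markers) were chosen after their values were seen.

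The axis, the 28 program lists and the 14 marker lists were chosen with earlier results of these data known. The fibroblast and fibrillar matrix lists, the fit without samples 6 and 8 and the fibroblast covariate were added after seeing the collagen calls. Of 6 motifs searched in 3 gene sets all results are given, and the promoters printed were chosen after the matches were seen. On simulated counts for 11202 genes with 200 changed, the step recovered 5.37% of genes at a slope of 0.5, 54.0% at 1 and 95.5% at 2, with 6.20% false calls.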

Additional observations from a re-analysis of the deposited data

Results flagged for a closer look

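For 83 values (the measures of each library and the genes named), the gap between the highest or lowest PS2APP sample and its neighbour was divided by the range over the 9 samples and compared with Dixon's 95% critical value. In groups not picked on their values chance flags about 1 in 20. Many of these genes were named for a wide spread or a small slope p, so that rate does not apply to them. Of the 83 values, 14 were above the critical value. Sample 8 accounted for 9 of them. It was low in the neuron score (0.552) and in Apoe (0.5005), and high in the ribosomal protein share (0.671), H2-Aa (0.514), H2-Eb1 (0.568), Cd63 (0.517), Glb1 (0.576), Npc2 (0.511) and Fdft1 (0.686). Sample 14 was low in Xist (0.887), in Xist reads set against Y-linked ones (0.825) and in Ifi207 (0.550). Sample 15 was high in Neb (0.646), and sample 4 was low in Rpl15 (0.569), a ribosomal protein gene with 7.15 CPM there and a median of 20.5. The Xist and Y-linked reads of sample 14 are those of a male library, as given above. Causes of the other flags were not tested. No gene had a slope that differed between 14 and 15 months after adjustment in edgeR (0 called, 1001 of 11202 at an unadjusted p under 0.05).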

How the results depend on the processing

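The counts of genes on the axis, 11 positive and 14 negative, were recomputed under 37 alternatives. Positive counts more than 1.5 times away were 20 without a filter on low counts, 3 with age as a covariate, 1 at 15 months alone, 18 with DESeq2, 4 with the robust edgeR fit, 0 with limma on RPKM, 4 without samples 8 and 4, 3 with the neuron covariate, 20 without samples 1 and 4, 7 with an axis without Lpl, 2 without samples 6 and 8, 0 with the fibroblast covariate and 0 with either permutation test. Negative counts were 22 with DESeq2 and with limma-voom, 0 with the robust fit, with limma on RPKM, with the immediate early covariate, with the fibroblast covariate and with either permutation test, 5 without samples 1 and 4, 9 and 8 with an axis without Igf1 or Lpl, and 26 without samples 6 and 8. With any 1 sample left out they ran from 3 to 11 positive and from 3 to 19 negative, with 7 or fewer positive without sample 1, 4, 6, 8, 10 or 14, and 8 or fewer negative without sample 4 or 6. The same genes were not always called: DESeq2 shared 8 of the 11 and 12 of the 14, and none of the 14 was called without samples 1 and 4. The permutation counts stayed at 0 with other pseudocounts.

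DESeq2 called 261 genes higher and 127 lower in PS2APP, against 134 and 31 with edgeR. The axis difference between ages ran from -0.62 to 0.02 with a sample left out, turning sign without sample 8, at 0.0188. Among genes, Col1a2 turned to -1.55 at 15 months alone and Tnc to -2.62 without samples 6 and 8, where both have hardly any reads. No paired analysis was possible because the comparison is within 1 group and the genotypes share no replicate numbers. At this depth and n, slopes of 0.5 were rarely recovered in simulation, so a gene not called is not shown to be independent of the axis.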
